A study of Mus musculus with 6 samples.

Results

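The EGF receptor family and its ligands were followed in whole testes of mice at postnatal day 5. The set lists 10 genes: the receptors Egfr, Erbb2, Erbb3 and Erbb4, and the ligands Nrg1, Hbegf, Areg, Tgfa, Egf and Btc. Members were found by matching the Ensembl identifiers of the count table to these symbols. Of the 10, 9 were found among the 57170 gene identifiers of the table, and Nrg1 was not analysed here. The count filter passed 8 of these 9, and Areg did not pass. The set was chosen from the comparison of the genotypes in these same libraries, so the members' differences between genotypes are given below as a description without p-values. There were 2 wild-type libraries (WT-1 and WT-2) and 4 sKO libraries (sKO-1 to sKO-4), the latter from mice with a conditional knockout of Mdm2 in germ cells before meiosis. All mice were of the same age, and the sources used here do not give the strain, the Cre driver or how many animals stand behind a library. RNA was polyadenylated RNA of the whole organ, so in these bulk samples fewer cells of a type and less RNA per cell cannot be told apart. Nothing in the labels says that the libraries came from separate animals, so the errors measure the spread between libraries, which may be technical.

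The EGF receptor family consists of cell surface tyrosine kinases that signal as pairs. EGF, transforming growth factor alpha (Tgfa) and amphiregulin (Areg) bind EGFR, heparin-binding EGF (Hbegf) and betacellulin (Btc) bind both EGFR and ERBB4, and the neuregulins bind ERBB3 and ERBB4. ERBB2 has no known soluble ligand and serves as the preferred partner of the other receptors, while ERBB3 has an impaired kinase and depends on its partner to signal. Ligands are made as membrane proteins and cut free by ADAM proteases, and active receptors feed the RAS-ERK and PI3K-AKT pathways. In the testis, neuregulins and EGF-like ligands are known as signals between the somatic cells of the cords and interstitium and the germ cells.

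The bases just upstream of the annotated start are shown for the 3 members that were higher in every sKO library than in the WT library of its subset (subsets are described below), and for Areg, the member with almost no counts. They come from the RefSeq promoter table of build GRCm38.p6, which is not the build of the counts, and each runs 5′ to 3′ on the strand of its gene and ends at the base before the start. The table matched Egfr, Erbb2, Erbb4, Areg, Tgfa, Egf and Btc, with 2 starts for Egf. Capitals mark GGGCGG (the GC box, in capitals as CCGCCC on the other strand), CCAAT and TATAAA, searched on both strands over 250 bases before the start; no matches overlapped in the promoters shown.
Egfr (chr11:16752103-16752202, plus strand): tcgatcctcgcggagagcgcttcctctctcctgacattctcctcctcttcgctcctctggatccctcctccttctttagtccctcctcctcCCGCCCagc
Erbb2 (chr11:98412384-98412483, plus strand): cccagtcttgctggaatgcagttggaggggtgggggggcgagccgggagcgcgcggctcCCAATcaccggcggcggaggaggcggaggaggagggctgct
Tgfa (chr6:86195072-86195221, plus strand): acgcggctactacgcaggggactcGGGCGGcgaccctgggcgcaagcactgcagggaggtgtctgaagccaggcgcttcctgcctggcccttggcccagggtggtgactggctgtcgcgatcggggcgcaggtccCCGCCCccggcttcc
Areg (chr5:91139499-91139598, plus strand): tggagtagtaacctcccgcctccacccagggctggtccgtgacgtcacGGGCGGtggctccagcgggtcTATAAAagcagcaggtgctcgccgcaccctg
Egfr and Areg held 1 GC box each and Tgfa held 2, against 32.7% of all 32851 promoters with at least 1. Erbb2 held 1 CCAAT, with its first base 41 bases before the start, against 33.8% of all promoters. Of the 4 promoters shown, Areg was the one with TATAAA, 31 bases before the start, against 12.4% of all promoters. G and C made up 60.8% of the 250 bases of Egfr, 66% of Erbb2, 69.2% of Tgfa and 57.2% of Areg, against a median of 52.4%. Because Mdm2 restrains p53, the p53 half-site consensus was also searched: it was found once before 1 of the 2 starts of Egf and in none of the other 6 genes, against 7.13% of all promoters. A match or its lack describes these letters in this window and says nothing of binding.

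Libraries held 17.99 M to 18.4 M expected counts (M, mega) and 25074 to 26556 genes with a count. The targeted gene Mdm2 was at 67.2 and 75.9 CPM in WT-1 and WT-2 and between 37.6 and 47.3 CPM in the 4 sKO libraries (CPM are counts scaled to a common library size by TMM). Germ cell markers held 0.0465% to 0.0661% of the normalised counts in WT and 0.0085% to 0.0142% in sKO, and all 10 were lower (adjusted p under 0.05, edgeR). The first principal component split the libraries across genotypes, with subset 1 holding WT-1 beside sKO-1 and sKO-2, and subset 2 the other 3. The labels name no batch, each subset holds 1 WT and 2 sKO libraries, and values within each are given wherever they bear on a member.

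Erbb2 was the most abundant member per length in every library. Levels of different genes are compared as CPM per kb of annotated exon. Erbb2 stood at 16.9 ± 5.63 CPM per kb in WT (SD, n = 2) and 23.6 ± 6.72 in sKO (SD, n = 4). Its level was 3.61 to 5.86 times that of the next member, depending on the library. In WT, Egfr (3.56 ± 0.25), Erbb3 (3.36 ± 0.12), Erbb4 (3.12 ± 0.31) and Tgfa (2.88 ± 0.73 CPM per kb) followed, with neighbours in this order differing by less than the larger of their SDs. In sKO the order behind Erbb2 was Egfr (4.89 ± 0.12), Tgfa (3.999 ± 0.926), Erbb4 (3.53 ± 0.24) and Erbb3 (1.92 ± 0.37 CPM per kb). Erbb3 was thus level with Egfr and Erbb4 in WT and below both in each sKO library, while the order of Egfr and Tgfa differed between sKO libraries. Hbegf (0.961 ± 0.190 in WT and 1.05 ± 0.277 CPM per kb in sKO) lay below all of these, and Btc (0.242 ± 0.113 and 0.283 ± 0.0661) and Egf (0.226 ± 0.0198 and 0.253 ± 0.0475) were lowest and differed by less than the SD of Btc. Areg had almost no counts. The ranks depend on the length used: with the longest coding transcript in place of all exons, Tgfa passed Egfr (5.20 against 4.94 CPM per kb over all libraries), Hbegf was at 2.07 instead of 1.02, and Egf passed Btc (0.577 against 0.423).

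**Figure D1:**
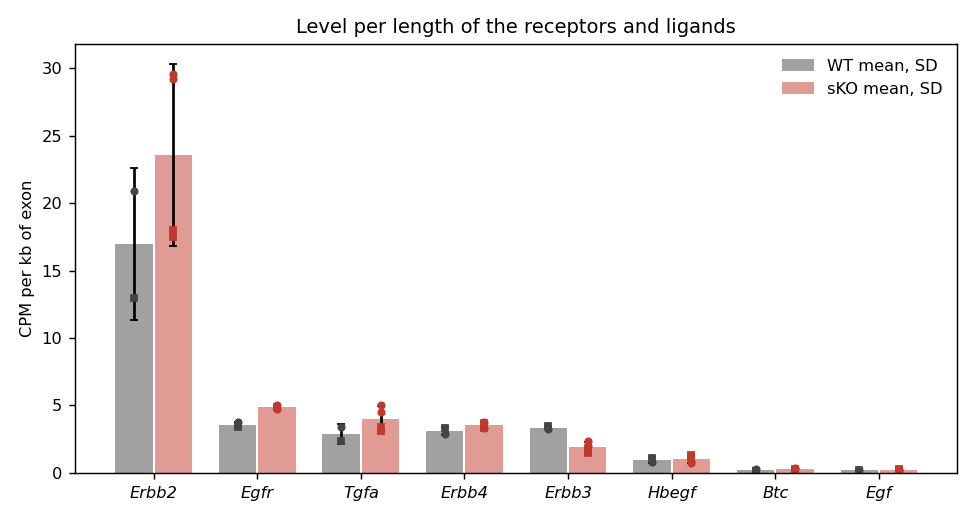
Level per length (vertical axis, CPM per kb of annotated exon) of the 8 members past the count filter. Bars are group means and lines SD (WT n = 2, sKO n = 4), and points are libraries. Erbb2 stands above every other member, and Erbb3 drops from 3.36 to 1.92 CPM per kb between WT and sKO.

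Erbb3 made up a smaller share of the receptors in every sKO library than in either WT library. Of the summed receptor level per length, Erbb3 made up 10.6% in WT-1 and 14.9% in WT-2, and 5.91%, 4.95%, 5.27% and 6.71% in sKO-1 to sKO-4. Erbb2 made up 62.0 ± 8.36% of the sum in WT and 68.6 ± 5.54% in sKO. The ratio of Erbb2 to Erbb3 per length was 6.40 in WT-1 and 3.76 in WT-2, against 12.4, 14.9, 12.1 and 9.54 in sKO-1 to sKO-4. All 4 sKO libraries thus lay above both WT libraries in this ratio. The shares and ratios restate the levels of members selected on this contrast and add no separate result. RNA of the whole organ does not show whether both transcripts lie in the same cells. The ratio of Erbb2 to Egfr did not separate the genotypes (4.71 ± 1.25 in WT and 4.81 ± 1.36 in sKO).

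Of the 8 members past the filter, 7 had a log2 fold change of sKO over WT above 0 and 1, Erbb3, below 0. The median was 0.20, against 0.03 for all 17707 genes tested, of which 9800 were above 0. In edgeR's quasi-likelihood test 1 member, Egfr, was past the threshold (adjusted p under 0.05), and it was higher. Over all genes 2.43% passed, 0.124% higher and 2.3% lower. DESeq2 put 1 member past its threshold as higher, Egfr, and 1 as lower, Erbb3, beside 0.407% of all genes higher and 3.25% lower. The members were selected on this contrast, so nothing is read from these counts.

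Egfr, the receptor of EGF and Tgfa, was at 42.3 CPM in WT-1 and 38.3 in WT-2. In sKO-1 to sKO-4 it was at 57.4, 54.0, 54.9 and 55.4 CPM. Every sKO library lay above both WT libraries, and the 4 sKO values spread little. Group means were 40.3 ± 2.83 CPM (SD, n = 2) and 55.4 ± 1.41 CPM (SD, n = 4), and the log2 fold change was 0.46 (SE 0.09). Egfr was the only member whose groups did not overlap upward, as was the case for 9.79% of all genes. It differed little between the subsets (ratio of means 1.03), and the sKO to WT ratio was 1.32 within subset 1 and 1.44 within subset 2. Leaving out any of the 6 libraries took Egfr out of the called genes, with log2 fold changes of 0.36 (without WT-2) to 0.53 (without WT-1).

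Stromal, Leydig and Sertoli cell markers had mostly positive log2 fold changes, while their summed shares overlapped between genotypes. Of all 17707 genes tested, 9800 were positive. In other somatic lists all 6 peritubular myoid and all 7 macrophage markers were negative, while 6 of 7 endothelial markers were positive. All 8 stromal markers had positive log2 fold changes (median 0.22), with a summed share of 0.586% to 0.762% in WT and 0.681% to 0.894% in sKO. All 8 Leydig cell markers were also positive (median 0.26, summed share 0.0989% to 0.117% in WT and 0.108% to 0.152% in sKO), and of 12 Sertoli cell markers 10 were positive (median 0.18, summed share 0.565% to 0.696% and 0.675% to 0.792%). For stromal and Sertoli cell markers WT-2 lay above sKO-1 and sKO-2, and for Leydig cell markers above sKO-1. In edgeR 0 stromal, 0 Leydig cell and 1 Sertoli cell marker passed as higher. Their part in the level of Egfr was not tested.

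Erbb3, the neuregulin receptor with an impaired kinase, was the one member that was lower. It was at 19.7 CPM in WT-1 and 20.7 in WT-2, and at 14.2, 11.9, 8.72 and 11.3 CPM in sKO-1 to sKO-4. The highest sKO value, in sKO-1, was below both WT values, a separation downward that 13.3% of all genes showed. Means were 20.2 ± 0.746 CPM (SD, n = 2) and 11.5 ± 2.25 CPM (SD, n = 4), and the log2 fold change was −0.81 (SE 0.19). The sKO to WT ratio was 0.664 within subset 1 and 0.483 within subset 2. Left-out libraries gave log2 fold changes from −0.92 to −0.69.

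Germ cell markers were lower in the same 4 libraries, by more than Erbb3. The 10 germ cell markers had a median log2 fold change of −2.32, with the smallest difference at −1.70. Dazl, which encodes a germ cell regulator of translation, stood at 218 CPM (WT-1) and 155 CPM (WT-2), against 45.5, 29.0, 29.2 and 43.9 CPM across sKO-1 to sKO-4. Within a genotype the orders of Erbb3 and of the germ cell marker share are given for 4 sKO and 2 WT libraries, which also differ by subset. Among sKO libraries the share was highest in sKO-4 (0.0142%), followed by sKO-1 (0.0133%), sKO-2 (0.0089%) and sKO-3 (0.0085%), while Erbb3 was highest in sKO-1, followed by sKO-2, sKO-4 and sKO-3. WT-1 had the higher share of the WT libraries (0.0661% against 0.0465%) and the slightly lower Erbb3 (19.7 against 20.7 CPM). Erbb3 rested on 379 and 368 counts in WT-1 and WT-2, and on 223 and 196 in sKO-2 and sKO-4. Orders of values this close cannot be told apart from counting error, and nothing is read from them. Schwann cells are another known source of Erbb3. Of 8 Schwann cell markers 5 were tested, 4 with positive and 1 with negative log2 fold changes and none past the threshold, and the summed share was 0.0149% to 0.0155% in WT and 0.0139% to 0.0191% in sKO. Their transcription factor Sox10 stood at 2.65 CPM in WT-1, 0.958 CPM in WT-2 and 0.751 to 1.32 CPM in sKO, and Foxd3 had at most 1 count in a library. Of 8 duct and rete epithelium markers 7 were tested, 5 with negative log2 fold changes (median −0.34); the adhesion molecule Epcam, which germ cells also carry, stood at 31.5 CPM in WT-1 and 29.7 CPM in WT-2, against 13.7, 8.89, 8.43 and 22.0 CPM across sKO-1 to sKO-4. The part of germ cells, Schwann cells and duct or rete epithelium in the level of Erbb3 was not tested.

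Erbb2, the ligandless partner receptor, differed more between the library subsets than between genotypes. It was at 109 CPM in WT-1 and 67.5 in WT-2, and at 152, 154, 91.3 and 93.6 CPM in sKO-1 to sKO-4. The genotypes overlapped, since WT-1 lay above sKO-3 and sKO-4. Within each subset both sKO libraries were above the WT library, by a ratio of 1.40 in subset 1 and 1.37 in subset 2. Means were 88.2 ± 29.3 CPM (SD, n = 2) and 123 ± 35 CPM (SD, n = 4), and the log2 fold change was 0.48 (SE 0.29). The ratio of subset 1 to subset 2 was 1.64. Leaving out WT-1 gave a log2 fold change of 0.86 and leaving out WT-2 gave 0.14, and each leaves WT in 1 subset.

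Erbb4, a receptor of neuregulins and of Hbegf and Btc, was at 35.8 and 41.2 CPM in WT-1 and WT-2 and at 41.0, 46.6, 45.7 and 41.1 CPM in sKO-1 to sKO-4. Both sKO-1 and sKO-4 lay just under WT-2, so the groups overlapped. The log2 fold change was 0.18 (SE 0.11), with a 95% interval of −0.08 to 0.44.

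**Figure D2:**
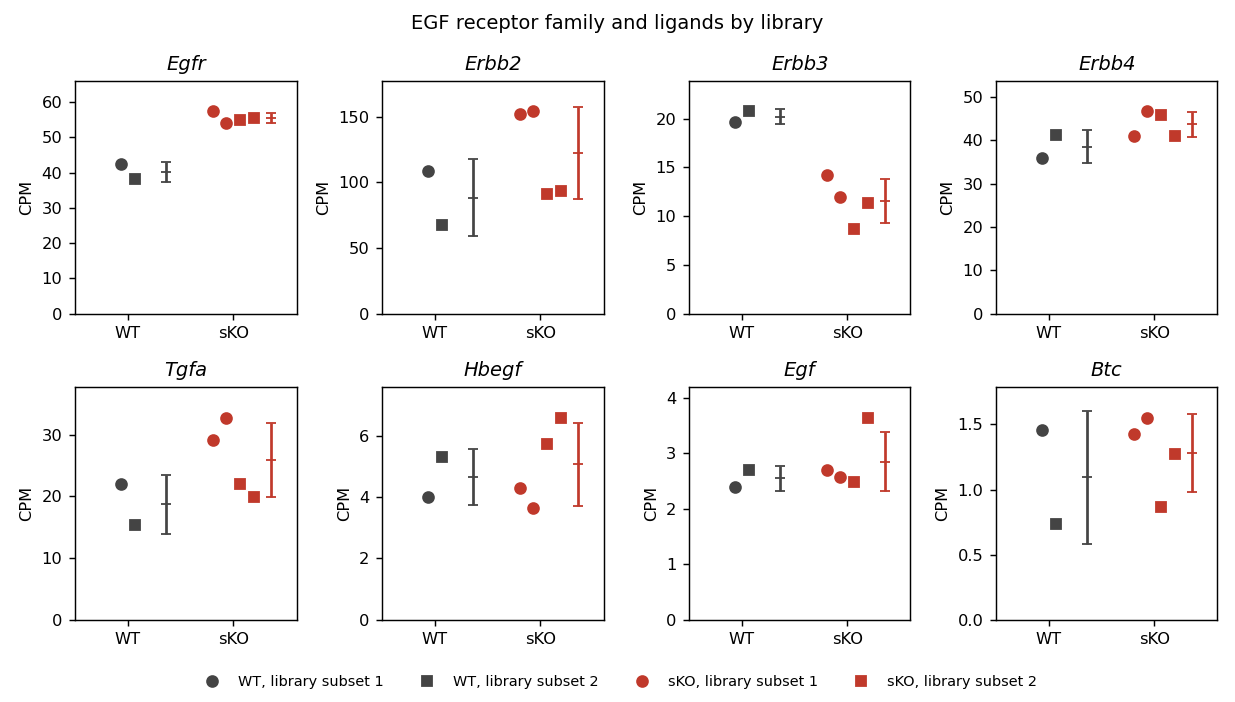
CPM (vertical axes, each from 0) of the 8 members past the count filter in WT and sKO. Points are libraries, circles for subset 1 and squares for subset 2, and the lines beside them give the mean and SD (WT n = 2, sKO n = 4). Groups are apart for Egfr (WT at most 42.3 CPM, sKO at least 54.0) and Erbb3 (WT at least 19.7 CPM, sKO at most 14.2), and overlap for the others.

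Among the analysed ligands of the set, Tgfa carried most of the level per length. It made up 66.3 ± 7.23% of the summed ligand level in WT and 70.8 ± 7.96% in sKO, followed by Hbegf with 22.9 ± 7.79% and 19.4 ± 7.20%. Neuregulin 1 and ligands outside the set, such as Nrg2 and Nrg4, are not part of these sums. Tgfa, which binds EGFR, was at 22.1 CPM in WT-1 and 15.3 in WT-2, and at 29.1, 32.8, 22.0 and 19.9 CPM in sKO-1 to sKO-4. As with Erbb2, the genotypes overlapped over all libraries, while both sKO libraries were above the WT library of their subset, by a ratio of 1.40 in subset 1 and 1.37 in subset 2. The log2 fold change was 0.47 (SE 0.25); leaving out WT-1 gave 0.76 and leaving out WT-2 gave 0.20. A predicted gene on the other strand, Gm43917, shares 118 exon bases with Tgfa, and the sources used here do not say whether reads were counted by strand.

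Hbegf, a heparin-binding ligand of EGFR and ERBB4, ran against Erbb2 and Tgfa between the subsets. It was at 3.998 and 5.30 CPM in WT-1 and WT-2 and at 4.29, 3.64, 5.72 and 6.59 CPM in sKO-1 to sKO-4. All 3 libraries of subset 2 were above all 3 of subset 1, and the genotypes overlapped (log2 fold change 0.12, SE 0.30). Its sign changed in 5 of 17 alternative fits.

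Egf, the founding ligand, stood at 2.39 CPM (WT-1), 2.70 CPM (WT-2) and 2.70, 2.57, 2.48 and 3.64 CPM (sKO-1 to sKO-4), with sKO-4 above the rest (log2 fold change 0.16, SE 0.28). Antisense genes share 500 (6330410L21Rik) and 607 (Gm42697) exon bases with Egf, so reads of Egf and of these genes may not have been told apart. Btc, which binds EGFR and ERBB4, stood at 1.45 CPM (WT-1), 0.732 CPM (WT-2) and 1.43, 1.55, 0.866 and 1.27 CPM (sKO-1 to sKO-4), with overlap (log2 fold change 0.22, SE 0.42). With 13 to 29 counts of Btc per library, counts limit the precision, and its log2 fold change ran from −0.21 without WT-2 to 0.80 without WT-1. Areg had 1 count in sKO-2 and 0 in the other 5 libraries. A count of 0 allows up to 3 counts, or 0.156 to 0.173 CPM depending on the library, for counting error only, so Areg was not detectable at this depth in those libraries.

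The library subsets were separated without overlap by 4 of the 8 members: Erbb2, Tgfa and Btc were higher in subset 1 and Hbegf in subset 2. Over all genes 39% separated the subsets in this way. For Tgfa the gap was small, with 22.1 CPM in WT-1 and 22.0 in sKO-3. Summed shares of stromal markers (0.586% to 0.692% in subset 1 and 0.762% to 0.894% in subset 2) and of Sertoli cell markers (0.565% to 0.687% and 0.696% to 0.792%) were apart between the same subsets, and their part in the levels of these members was not tested. With a term for the subset in the edgeR fit, Egfr (log2 fold change 0.46, SE 0.07), Erbb2 (0.47, SE 0.05) and Tgfa (0.47, SE 0.10) were past the threshold as higher and Erbb3 (−0.82, SE 0.15) as lower. In that fit 4.97% of all genes were higher and 8.65% lower. The subset was read from these same libraries and the members were selected on this contrast, so nothing is read from that count.

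**Figure D3:**
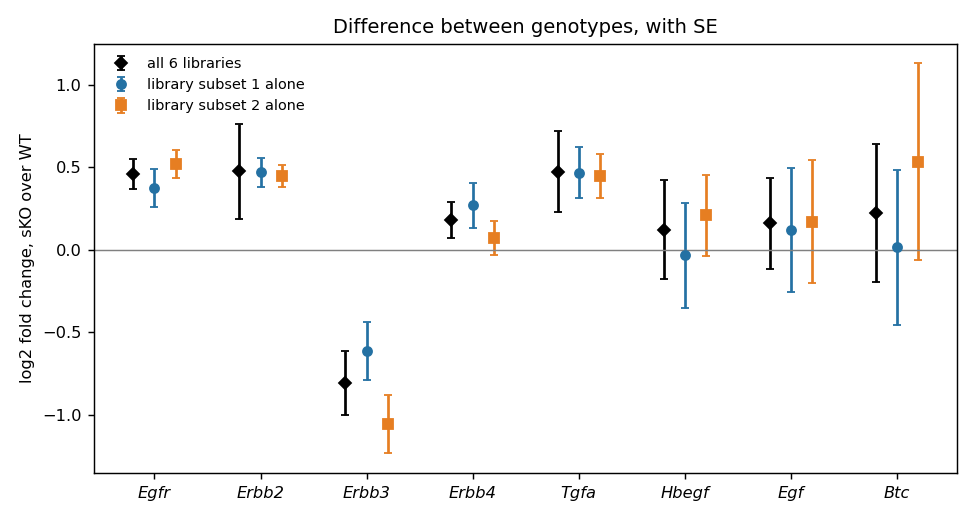
Log2 fold change of sKO over WT (vertical axis) with SE, for all 6 libraries and for each library subset alone, in which 1 WT library is set against 2 sKO libraries. Values in all libraries, subset 1 and subset 2 are 0.48, 0.47 and 0.45 for Erbb2 and −0.81, −0.61 and −1.06 for Erbb3. Within a subset only the 2 sKO libraries share a genotype, and the SE also draws on the spread of other genes. The widths of the errors are therefore not compared.

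Erbb2 and Tgfa followed each other across libraries. Pearson's r of their log2 CPM was 0.98 and Spearman's rho 0.94 over 6 libraries, the highest r among the 28 pairs of members, and given as a description without a p because the libraries share genotype and subset. Within subset 1 both were lowest in WT-1, and within subset 2 both were lowest in WT-2. Among 13181 other genes with a symbol and at least 1 CPM, the 3 with the highest r to Erbb2 were Cflar (r 0.998), an inhibitor of caspase-8, Zdhhc6 (0.997), a palmitoyltransferase, and Tcim (0.996). For Egfr they were Tnks2 (0.992), a tankyrase, the transporter gene Abca8b (0.991) and Slc33a1 (0.989), an acetyl-CoA transporter. For Erbb3 they were Dtx2 (0.996), a Deltex ubiquitin ligase, Tbl3 (0.996) and Tbc1d15 (0.992), and for Erbb4 Borcs7 (0.984), the tetraspanin Cd151 (0.983) and Zfp37 (0.983). All of these correlations are over the same 6 libraries, which share genotype and subset.

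**Figure D4:**
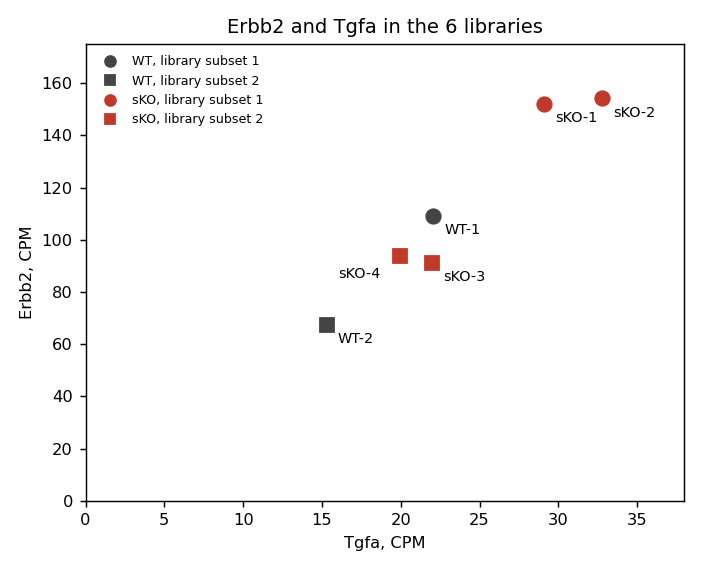
Erbb2 (vertical axis, CPM) against Tgfa (horizontal axis, CPM), 1 point per library, circles for subset 1 and squares for subset 2. sKO-1 and sKO-2 lie at the top right (152 and 154 CPM of Erbb2), WT-2 at the bottom left (67.5 CPM), and WT-1 near sKO-3 and sKO-4.

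The other genes of the pathway, which are not members, were tested in the same fit. Of 93 tested genes in 5 lists, 0 were higher and 1 was lower in edgeR, with a median log2 fold change of 0.05. Over all genes 0.124% were higher and 2.3% lower. At an unadjusted p under 0.05, 7 of the 93 pathway genes and 2317 of all 17707 passed. DESeq2 called 0 pathway genes higher and 3 lower, beside 0.407% of all genes higher and 3.25% lower. No difference from all genes is read from these counts. With 2 libraries against 4, a gene that did not pass is not shown to be level. The gene that passed in edgeR was Ccnd1, cyclin D1, which drives entry into the cell cycle and is induced by ERK signalling. It was at 41.3 and 45.4 CPM in WT-1 and WT-2 and at 15.6, 14.1, 17.0 and 21.8 CPM in sKO-1 to sKO-4. Every sKO value was below both WT values. Ccnd1 fell by 1.34 on the log2 scale (SE 0.17, edgeR adjusted p = 0.0152), −1.50 within subset 1 and −1.23 within subset 2. The call ended without WT-1 (adjusted p = 0.147) or WT-2 (adjusted p = 0.0628) and held without each sKO library. Germ cell markers were lower in the same libraries, and their part in the level of Ccnd1 was not tested.

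Of the other ligands of the family, Nrg2 and Nrg4 passed the count filter and the rest had few counts. Nrg2, a neuregulin, was at 5.51 ± 1.10 CPM in WT (SD, n = 2) and 7.14 ± 2.36 in sKO (SD, n = 4), with a log2 fold change of 0.37 (SE 0.33). Nrg4, which binds ERBB4, was at 2.53 ± 0.490 and 2.63 ± 0.542 CPM (0.06, SE 0.30). Nrg3, Ereg (epiregulin) and Epgn (epigen) did not pass the count filter and reached at most 0.113, 0.156 and 0.268 CPM in any library. Neither of the 2 tested ligands passed the threshold or an unadjusted p under 0.05 in edgeR, and DESeq2 called 0.

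Of 11 tested genes of ligand shedding and trafficking 0 passed in edgeR or DESeq2, and 2 had an unadjusted p under 0.05 (median log2 fold change 0.06, range −0.29 to 0.30). The most abundant were Timp3, an inhibitor of the sheddases (log2 fold change −0.10, SE 0.11), and Adam10, the main sheddase of Egf and Btc (0.05, SE 0.09). Of 34 adaptors and signal transducers 0 passed in edgeR, 2 had an unadjusted p under 0.05 and DESeq2 called 1 lower (median 0.05, range −0.58 to 0.29). Among the most abundant was the phospholipase Plcg1 (0.18, SE 0.11). The growth kinase Mtor, named after its values were seen, had the lowest value of this list (72.4 ± 4.38 CPM in WT, 48.5 ± 8.56 in sKO, log2 fold change −0.58, SE 0.16, edgeR adjusted p = 0.138).

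Of 27 negative regulators 0 passed in edgeR or DESeq2 and 0 had an unadjusted p under 0.05 (median 0.02, range −0.37 to 0.61). Among the most abundant was Cd2ap, an adaptor of receptor endocytosis (0.00, SE 0.08). Of 19 immediate early and ERK target genes Ccnd1 alone passed in edgeR, 3 had an unadjusted p under 0.05 and DESeq2 called 2 lower (median −0.03, range −1.34 to 0.42). Etv4, an ETS factor induced by ERK and named after its values were seen, had the next lowest value (19.7 ± 2.36 CPM in WT, 9.79 ± 2.25 in sKO, log2 fold change −1.01, SE 0.22, edgeR adjusted p = 0.0668). With the subset term 5 genes of the 5 lists were higher and 4 were lower, beside 4.97% of all genes higher and 8.65% lower.

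**Figure D5:**
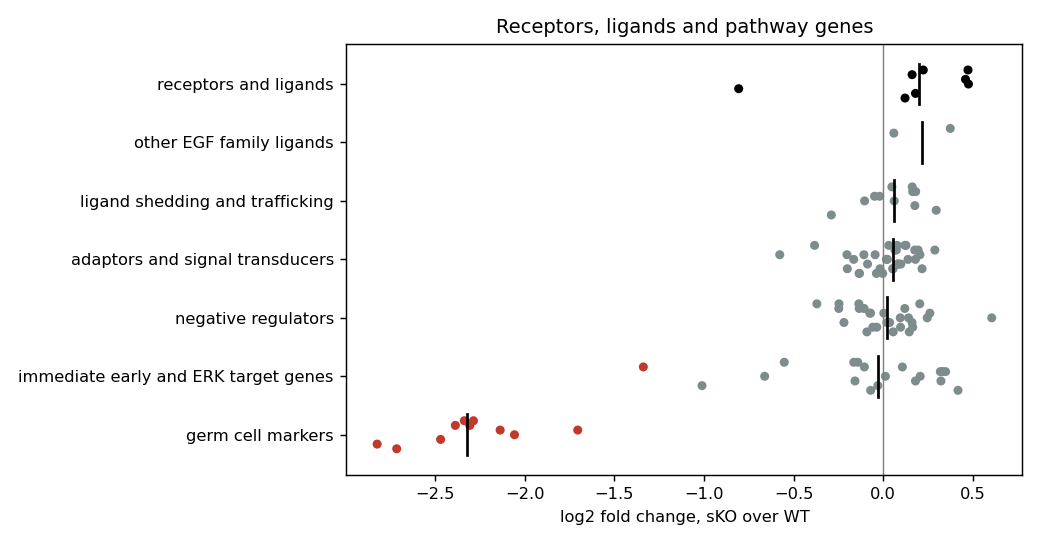
Log2 fold change of sKO over WT (horizontal axis) of the members, the 5 pathway lists and the germ cell markers, 1 point per tested gene, with a vertical line at each list's median. Red points are pathway and marker genes past the edgeR threshold; members are drawn in black whether past it (Egfr) or not, because they were selected on this contrast. Pathway list medians lie between −0.03 and 0.22, with Ccnd1 at −1.34, while germ cell markers have a median of −2.32.

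The remaining marker lists gave the cellular setting. Undifferentiated spermatogonia markers had 6 of 9 tested genes lower and 0 higher (median −1.69), among them Zbtb16 (−2.25) and Gfra1 (−1.29), and Ddx4 of the germ cell list was at −2.31. Of the Sertoli cell genes Amh was higher (0.45, edgeR adjusted p = 0.0429), and Sox9 was at 0.01. Of 6 peritubular myoid markers 1 was lower, Cnn1, with Acta2 at −0.18 and Myh11 at −0.54. In edgeR 0 of 8 Leydig cell (Star 0.46, Cyp11a1 0.27), 8 stromal (Col1a1 0.06, Col1a2 0.17), 7 endothelial (Pecam1 0.22, Cdh5 0.27), 7 macrophage (Csf1r −0.19, Adgre1 −0.09), 5 Schwann cell (Sox10 −0.73) and 7 duct epithelium markers (Epcam −1.21, Cdh1 −0.74) passed, all values being log2 fold changes. At an unadjusted p under 0.05 these 6 lists had 0, 2, 0, 0, 0 and 1 genes, and DESeq2 called 1, in the duct epithelium list.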

How the data were processed

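Polyadenylated RNA of whole testes was sequenced in 6 libraries, grouped by their titles (WT, 2; sKO, 4); the design text speaks of 3 replicates per group. The authors deposited 1 table of expected counts (estimates with fractions). The submitters' processing notes name fastp, STAR, RSEM and the build mm39; the sources used here do not give versions, annotation or strandedness. Symbols and exon lengths came from GENCODE M21 (GRCm38), which matched 90.5% of identifiers, so no coordinates of the counts are given. Expected counts were rounded, filtered with filterByExpr (minimum count 10; 17707 genes left), scaled by TMM and fitted with edgeR 4.0.16 (quasi-likelihood, all 6 libraries, Benjamini-Hochberg over all genes, threshold 0.05) in R 4.3.3. SE is the log2 fold change over the root of F. The alternatives were DESeq2 1.42.0 and the settings named in the closing section. Libraries of 1 group differed beyond sampling noise (chi-square per gene 3.97 to 23.9), and each entered the fit on its own. Inside a subset this measure was low, at 6.7 between sKO-1 and sKO-2 and 3.97 between sKO-3 and sKO-4. Across subsets, pairs of sKO libraries reached 19.6 to 23.9 and the WT pair 21.6. Such differences do not show that libraries of a group are independent, which was not tested. Totals of about 18 M counts leave counting error small for all but the lowest members.

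The members, gene lists, subset term and tests were chosen with earlier results of these data known. Named were all members, Mdm2, in each pathway list up to 4 genes with the smallest adjusted p under 0.05 or else the 2 most abundant, the first 2 genes of each marker list, and for each receptor the 3 genes with the highest correlation. Some genes that this rule names are not reported here. The fit was tested on simulated data with known changes. It called 4 of 65 genes changed 1.5-fold, 25 of 63 changed 2-fold and 47 of 64 changed 4-fold, with 6 false calls. Most changes of 1.5-fold were thus missed.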

Additional observations from a re-analysis of the deposited data

Results flagged for a closer look

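Of 17 members and named pathway genes examined in the 4 sKO libraries, 2 had 1 library apart from the other 3 (by the gap to the nearest library over the range of the group; chance does this in about 1 of 20 groups). Adam10 was at 178.6 CPM in sKO-1, below the other sKO libraries. Cd2ap was at 219.5 CPM in sKO-2, also below the others.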

How the results depend on the processing

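Across all genes, 22 were higher and 408 lower. The counts were 81 and 648 with DESeq2, 880 and 1531 with the subset term, 282 and 946 in subset 1 alone, and 267 and 567 in subset 2 alone. Leaving out 1 library gave 2 to 7 higher and 1 to 225 lower. Pathway genes numbered 0 higher and 1 lower. They were 5 higher and 4 lower with the subset term, 4 lower in subset 1 alone, 1 higher and 3 lower in subset 2 alone, 3 lower with DESeq2, 2 lower without the count filter, and 0 to 1 lower (0 without WT-1 or WT-2) with 0 higher when 1 library was left out. With the longest coding transcript as length, Egfr was at 4.94, Tgfa at 5.20, Hbegf at 2.07, Egf at 0.577 and Btc at 0.423 CPM per kb (4.45, 3.63, 1.02, 0.244 and 0.269 with all exons), so that Tgfa passed Egfr and Egf passed Btc; Erbb2, Erbb4 and Erbb3 moved by less than the spread. For the other changes in count the cause was not tested. Replicate numbers 1 and 2 occur in both groups but nothing pairs the libraries (r of their differences over genes −0.01). With the replicate block on those 4 libraries 19 genes were higher and 268 lower, against 9 and 187 without the block, and Egfr was not called in either. Over 17 alternatives Egfr, Erbb2, Erbb3, Erbb4, Tgfa and Egf kept the sign of their log2 fold change, and Hbegf (5) and Btc (1) did not. Among alternatives that keep both WT libraries, Egfr passed the threshold with DESeq2, RLE size factors, unrounded counts and the subset term. Erbb3 passed with DESeq2 and the subset term, and Erbb2 and Tgfa with the subset term alone. Upper-quartile factors, no count filter and the 1 CPM filter were among the alternatives that ended the Egfr call. The members were selected on this contrast and the subset was read from these same libraries, so nothing is read from these calls. Depth limits Btc, Areg and the ligands under the filter.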
